A study of Mus musculus with 9 samples.

Results

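The comparison described here set cultured endothelial progenitor cells (EPCs) from the bone marrow of male mice (M-EPCs) against those of ovariectomized female mice (OVX-EPCs), on the autosomes. Its members were every gene that the authors list for that pair of groups and that GENCODE or RefSeq places on chromosomes 1 to 19, which gave 1263 of the 1317 listed genes. Of the others, 26 lie on chromosome X, 7 lie on chromosome Y and 21 had no position under their listed symbol. All 1263 passed the filter on low values.

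M-EPCs came from male and OVX-EPCs from ovariectomized female C57BL/6J mice, 8 weeks old, with ovariectomy at about 35 days of age. In each group, lineage-depleted bone marrow cells were sorted magnetically for Sca-1 and CD31, which mark haematopoietic progenitor and endothelial cells, and were then cultured in EGM-2, an endothelial growth medium. Each group gave 3 of the 9 RNA libraries of the series, and the third group, of intact females (F-EPCs), enters only where its values are set beside a member. The groups differ in sex and in surgery together, which cannot be told apart here. The study's methods speak of biological replicates in general, and neither they nor the labels tie a library to its mice or its culture, so the p-values measure only the spread between these libraries. In bulk RNA, fewer cells of a type and less RNA per cell cannot be told apart.

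Each library held 707791 to 923145 reads on the listed genes, and the authors' size factors lay between 0.819 and 1.09. Dividing the reads of a gene by that factor gives its normalized count, and 100% of the values were whole reads after multiplying back. Replicate libraries differed by more than sampling noise, with a chi-square of their reads per degree of freedom between 3.16 and 3.39 among M-EPCs and between 3.24 and 7.48 among OVX-EPCs. Over the 270 members with a mean of at least 100 normalized counts in both groups, the median coefficient of variation between replicates was 5.36% in M-EPCs against 7.80% in OVX-EPCs. A gene with 3 reads or fewer in every library of a group was taken as at the floor, a limit that covers counting error only.

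The interferon response runs from receptors through the kinases of the JAK family to transcription factors, those of the IRF family among them, which bind short elements in the promoters of interferon-stimulated genes. Its targets include guanylate-binding proteins and other large GTPases that act on vacuoles holding pathogens, antiviral proteins of the IFIT and OAS families, and, through CIITA, the genes of MHC class II. In the bone marrow, GATA2, GFI1B and NFE2 are transcription factors of megakaryocyte, mast cell and basophil development. Platelet receptors such as glycoprotein VI and the integrin made of ITGA2B and ITGB3 bind collagen and fibrinogen.

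The level was higher in M-EPCs for 518 of the 1263 members and higher in OVX-EPCs for 745. Limma called 1250 of them, taking an adjusted p below 0.05 together with a change of 1 or more on the log2 scale, 509 higher and 741 lower, which is 99.0% of the members called, 40.3% called higher and 58.7% called lower. The 3 M-EPC values did not overlap the 3 OVX-EPC values for 1252 members (99.1%). The authors had chosen the listed genes on these same libraries, so calls and separation, here and for the genes and lists below, are given as description, with no support drawn from them. When size factors were computed anew from the listed genes, 49.95% of the called members were higher in M-EPCs by edgeR's RLE factors and 51.7% by those of DESeq2, set against 40.7% with the authors' factors, and the median of all members moved up by 0.62 and 0.63 on the log2 scale.

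With the authors' size factors the larger differences were mostly lower in M-EPCs. Members higher in M-EPCs had a median log2 fold change of 1.43, from 0.96 to 6.40, and members lower in M-EPCs had a median of -2.35, from -0.97 to -6.77. Of the 700 members with an absolute log2 fold change from 1 to 2, 57.3% were higher in M-EPCs, and this share was 30.5% of 305 from 2 to 3, 11.1% of 126 from 3 to 4 and 0.840% of the 119 at 4 or above, where Gbp2b was the 1 member higher in M-EPCs. These sizes depended on the scaling. The recomputed factors rest on the listed genes alone, all selected as differing, so they cannot decide which scaling is right. TMM factors moved values by a median of 0.20 on the log2 scale, less than RLE and DESeq2. With edgeR's RLE factors the medians were 2.05 and -1.77, and the share higher in M-EPCs was 56.3% from 1 to 2, 65.9% from 2 to 3, 37.8% from 3 to 4 and 12.4% at 4 or above. DESeq2 with its own factors gave medians of 2.06 and -1.81, with 25 of 178 members higher at 4 or above. The share rose with level, from 22.8% of the 158 members with a mean under 10 normalized counts to 62.2% of the 90 members between 1000 and 10000, and was 56.2% of the 16 members above that. The smallest absolute changes were those of 4930473A02Rik, Gm19667, Gm37255 and 1600010M07Rik at 0.96 to 0.98 and Dennd5b at -0.97. Genes outside the authors' screen were not used here.

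**Figure D1:**
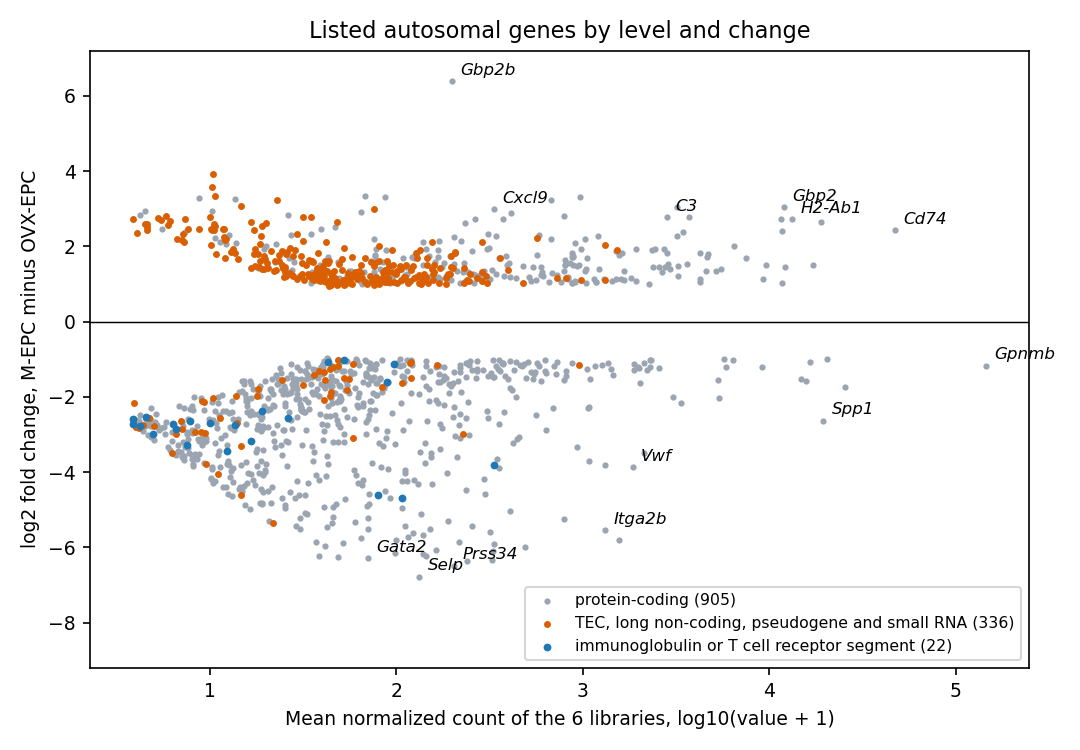
Each point is 1 of the 1263 members, by its mean normalized count over the 6 libraries (log10 of the value plus 1) and its log2 fold change, M-EPC minus OVX-EPC; colours give the annotated kind. Protein-coding genes spread down to -6.77, Gbp2b stands alone at 6.40, and the non-coding kinds lie mostly above 0.

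The M-EPC floor held 164 members, 52 of them with 0 reads in all 3 libraries, and the OVX-EPC floor held 25, of which 5 had 0 reads. Trpc6, a calcium channel, had 1.95, 0.918 and 2.44 normalized counts in M-EPCs against 204.2, 164.1 and 206.5 in OVX-EPCs, a level at least 52.3-fold lower in M-EPCs, dividing the OVX-EPC mean by the highest of the 3 M-EPC floors, that of the library with the fewest reads. Every bound used the highest floor of the group that was at the floor. In the other direction the widest bound was that of Gm48726, with 24.3, 17.5 and 13.4 against 0.963, 0 and 0, at least 6.36-fold higher in M-EPCs. The median log2 fold change of all members was -1.28 as fitted and -1.19 with such genes at their bound.

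The interferon-inducible GTPases were listed completely: 23 of the 23 genes in that list were members, and all 23 were called higher in M-EPCs, with a median log2 fold change of 1.91 against -1.28 for all members. Their summed level lay between 114550 and 117999 normalized counts in the M-EPC libraries and between 25239 and 26791 in the OVX-EPC libraries. The family holds near-identical neighbours such as Tgtp1 and Tgtp2, between which reads may have been split, so single members are less certain than the sum. The list was written with earlier results of these data known, so its completeness is description only.

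Gbp2b, a guanylate-binding protein gene at chr3:142594847-142619179, had 390.5, 387.6 and 398.1 normalized counts in the M-EPC libraries against 0.963, 6.60 and 5.79 in the OVX-EPC libraries. Every M-EPC library was far above every OVX-EPC library, which held between 1 and 7 reads. The means were 392.1 ± 5.39 and 4.45 ± 3.05 (SD, n = 3), tested with limma (log2 fold change 6.40 ± 0.45 SE, adjusted p = 2.62e-08). Without OVX-EPC replicate 1 the value of Gbp2b was 5.77. Gbp2, at chr3:142620602-142638008, was among the 10 most abundant members in M-EPCs, with 20986, 21338 and 22047 against 2547, 2712 and 2593 normalized counts. Its groups were far apart and each was tight (log2 fold change 3.03 ± 0.04 SE, adjusted p = 2.08e-15). Gbp4, at chr5:105115767-105139586, had 5510, 5755 and 5830 against 693.6, 689.6 and 690.8 (log2 fold change 3.04 ± 0.06 SE, adjusted p = 4.11e-14). Iigp1, an immunity-related GTPase, had 19350, 19434 and 20254 against 3437, 4085 and 3588 (log2 fold change 2.41 ± 0.06 SE, adjusted p = 3.01e-13). The 6 listed genes of the Gbp stretch on chromosome 3 and the 6 of the stretch on chromosome 5 were all higher in M-EPCs, as were the 8 listed genes around Irgm1, Tgtp1 and Ifi47 on chromosome 11.

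Per kilobase of transcript, Gbp2 stood at 8528 normalized counts in M-EPCs against 1040 in OVX-EPCs, and Gbp2b at 138.9 and 1.58. The promoters of both are shown because they hold the letters of an interferon-stimulated response element. In RefSeq GRCm38.p6 the windows run from 250 bases before the start site to 50 after it, both on the plus strand, chr3:142594597-142594896 for Gbp2b and chr3:142620413-142620712 for Gbp2. Capitals mark the match, GAAA, any 2 bases and GAAA again, read here on the opposite strand, which begins at position -137 of Gbp2b and at -59 of Gbp2.
Gbp2b: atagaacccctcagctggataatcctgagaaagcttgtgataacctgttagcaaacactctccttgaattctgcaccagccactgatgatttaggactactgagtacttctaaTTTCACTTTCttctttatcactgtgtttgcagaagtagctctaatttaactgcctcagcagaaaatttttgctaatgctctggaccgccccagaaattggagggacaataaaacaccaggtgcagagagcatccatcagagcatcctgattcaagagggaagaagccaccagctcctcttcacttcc
Gbp2: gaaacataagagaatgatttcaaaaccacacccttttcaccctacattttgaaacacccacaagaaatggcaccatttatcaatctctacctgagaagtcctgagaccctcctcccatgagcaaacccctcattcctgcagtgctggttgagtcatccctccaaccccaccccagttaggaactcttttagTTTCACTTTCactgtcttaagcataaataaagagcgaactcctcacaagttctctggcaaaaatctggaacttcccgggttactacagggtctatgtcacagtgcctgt

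Of the 48 genes in the list of type I interferon antiviral genes 22 were members, 21 called higher in M-EPCs and 1 lower, with a median log2 fold change of 1.52. Ifit2, which binds viral RNA, had 10459, 10113 and 10626 normalized counts in M-EPCs against 2531, 2621 and 2524 in OVX-EPCs (log2 fold change 2.02 ± 0.04 SE, adjusted p = 1.68e-13). Zbp1, a sensor of nucleic acid in the Z form, had 3773, 3742 and 4050 against 979.7, 1053 and 1004 (log2 fold change 1.93 ± 0.06 SE, adjusted p = 6.72e-12). The exception was Slfn4, which fell, with 25.3, 50.5 and 39.1 in M-EPCs against 200.4, 136.8 and 173.7 in OVX-EPCs (log2 fold change -2.16 ± 0.27 SE, adjusted p = 8.45e-06).

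Of 27 regulators of the pathway 6 were listed, 5 of them higher, with a median log2 fold change of 1.42. Irf1, a transcription factor of the interferon response, had 7809, 7994 and 8035 normalized counts in M-EPCs against 3172, 2734 and 3149 in OVX-EPCs (log2 fold change 1.40 ± 0.06 SE, adjusted p = 1.02e-10). Socs1, a feedback inhibitor of JAK kinases, had 486.0, 524.4 and 528.7 against 110.8, 92.4 and 99.4 (log2 fold change 2.34 ± 0.13 SE, adjusted p = 2.67e-09). None of these groups overlapped. Stat4 was lower, at 2.92, 16.5 and 14.7 against 40.5, 61.3 and 20.3 (log2 fold change -1.89 ± 0.60 SE, adjusted p = 0.00858). The adjusted p of Stat4 was 0.0739 without OVX-EPC replicate 2, and its value was -1.20 without M-EPC replicate 1. Ifng, the gene of the cytokine itself, is not listed for this pair of groups.

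Of the 13 genes of MHC class II presentation 8 were members, 7 called higher in M-EPCs and 1 lower, with a median log2 fold change of 2.36. Their summed level lay between 166447 and 171513 normalized counts in M-EPCs, against between 29411 and 32275 in OVX-EPCs. Cd74, the invariant chain, had 80604, 77950 and 81046 normalized counts in M-EPCs against 14509, 13953 and 15791 in OVX-EPCs, the highest level of any member that was higher in M-EPCs (log2 fold change 2.44 ± 0.04 SE, adjusted p = 1.24e-14). H2-Ab1, which encodes a class II beta chain at chr17:34257689-34269419, had 23576, 22240 and 22937 against 3423, 3426 and 3615 (log2 fold change 2.72 ± 0.04 SE, adjusted p = 4.54e-15). Ciita, the transactivator of the class II genes, had 5313, 5076 and 5419 against 1041, 1019 and 1220 (log2 fold change 2.27 ± 0.07 SE, adjusted p = 6.00e-12). H2-Ob, part of an inhibitor of peptide loading that B cells carry, went the other way, with 3.90, 14.7 and 1.22 against 43.3, 47.2 and 71.4 (log2 fold change -3.27 ± 0.62 SE, adjusted p = 2.83e-04). Its level in M-EPC replicate 2 was well above that of the other M-EPC libraries, and still below every OVX-EPC library. The value of H2-Ob was -4.02 without M-EPC replicate 2 and -2.61 without replicate 3.

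Of MHC class I presentation, 2 of 30 genes were listed, both higher: Tapbpl, a peptide editor, at 1.09 and H2-M2 at 1.75 on the log2 scale. Complement had 6 of 27 genes listed. The components C3 and C4b were higher, with C3 at 5006, 4786 and 5028 in M-EPCs against 719.6, 725.4 and 725.5 in OVX-EPCs (log2 fold change 2.77 ± 0.06 SE, adjusted p = 1.30e-13). C4b was higher at 2.31 and the component Cfb at 2.09, while the complement regulator Cd55 was lower at -1.61 and the complement receptor subunit Itgax at -1.21. With size factors recomputed by RLE or DESeq2 Itgax was at -0.58, and Cd55 just under the threshold.

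**Figure D2:**
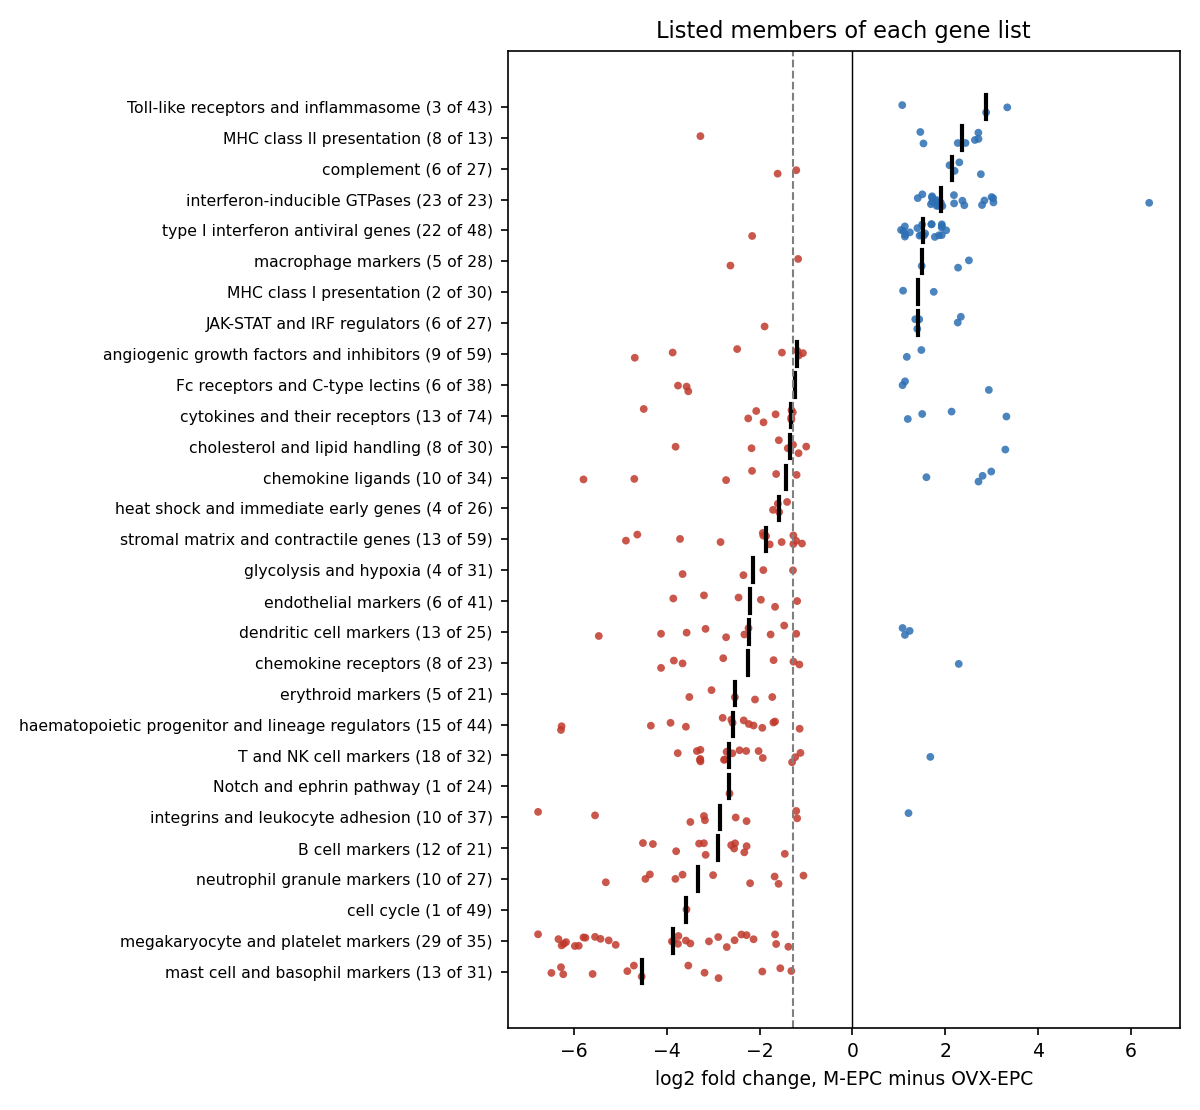
Each point is a listed member of a gene list, by its log2 fold change, M-EPC minus OVX-EPC (blue higher in M-EPC, red lower); black bars are list medians, the dashed line is the median of all 1263 members (-1.28), and brackets give members out of genes in the list. The interferon-inducible GTPases lie wholly to the right, and the platelet and the mast cell and basophil lists wholly to the left.

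Chemokine ligands moved both ways, with 4 of 10 listed members higher and 6 lower, out of 34 in the list. Cxcl9 and Cxcl10, ligands of CXCR3 that draw activated T cells, were higher, as was Ccl5. Cxcl9 had 607.7, 643.8 and 531.1 in M-EPCs against 78.03, 81.1 and 62.7 in OVX-EPCs (log2 fold change 2.99 ± 0.15 SE, adjusted p = 7.65e-10). Cxcl10 had 579.5, 623.6 and 720.4 against 131.0, 68.9 and 98.4 (log2 fold change 2.72 ± 0.20 SE, adjusted p = 3.70e-08). Ccl5 had 1459, 1318 and 1403 against 194.6, 202.8 and 196.8 (log2 fold change 2.81 ± 0.09 SE, adjusted p = 8.61e-12). No OVX-EPC library reached an M-EPC library for any of the 3. The lower members included the platelet chemokines Ppbp, at 46.7, 77.2 and 43.96 against 2959, 3142 and 3081 (log2 fold change -5.79 ± 0.17 SE, adjusted p = 3.85e-12), and Pf4, which kept a level of 1352 normalized counts per kilobase in M-EPCs against 4228 in OVX-EPCs and fell by 1.64 on the log2 scale. Cxcl5, a ligand of CXCR2, had 0, 7.35 and 0 in M-EPCs against 63.6, 42.4 and 51.1 in OVX-EPCs (log2 fold change -4.70 ± 0.73 SE, adjusted p = 5.31e-05). All of its M-EPC reads were in replicate 2, and without it the value was -5.72. Of the chemokine receptors 8 of 23 were listed, and 7 were lower, among them Ccr7, Cxcr2 and Ccr2.

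Of 74 cytokines and receptors 13 were listed, 4 higher and 9 lower. Il1b, at chr2:129364570-129371139, had 164.6, 142.4 and 153.8 in M-EPCs against 20.2, 5.66 and 25.1 in OVX-EPCs (log2 fold change 3.32 ± 0.43 SE, adjusted p = 1.16e-05). The OVX-EPC values of Il1b spread widely, none came near an M-EPC value, and the log2 fold change was 2.71 without OVX-EPC replicate 2. Il27 was higher at 2.14, and Tnfsf10, which encodes the death ligand TRAIL, at 1.51. Il12a, a subunit of IL-12, had 0.974, 0 and 0 in M-EPCs against 27.9, 30.2 and 24.1 in OVX-EPCs, a level at least 7.48-fold lower in M-EPCs. Pattern recognition was almost unlisted, with 3 of 43 genes, all higher. Tlr12, a sensor of parasite profilin, had 688.6, 716.4 and 752.1 against 100.2, 74.5 and 120.6 (log2 fold change 2.88 ± 0.16 SE, adjusted p = 2.66e-09), and its partner Tlr11 had 136.3, 113.0 and 117.2 against 6.74, 10.4 and 19.3 (log2 fold change 3.34 ± 0.37 SE, adjusted p = 2.77e-06).

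Macrophage markers moved both ways. Of 28 macrophage markers 5 were listed, 3 higher and 2 lower in M-EPCs, and their summed level lay between 95743 and 97765 normalized counts in M-EPCs, against between 229456 and 241927 in OVX-EPCs. Most of that sum was Gpnmb in both groups. Gpnmb, a glycoprotein of macrophages, had 89743, 88358 and 90180 in M-EPCs against 199412, 195526 and 208260 in OVX-EPCs, the highest count of any member in both groups (log2 fold change -1.17 ± 0.02 SE, adjusted p = 1.30e-13). With size factors recomputed by RLE or DESeq2 its change was -0.54, under the threshold. Spp1, which encodes osteopontin, had 5419, 5554 and 5256 against 33560, 33511 and 33232 (log2 fold change -2.63 ± 0.03 SE, adjusted p = 1.64e-15). Nos2, the inducible nitric oxide synthase, was higher, with 100.3, 65.2 and 69.6 against 16.4, 8.49 and 14.5 (log2 fold change 2.51 ± 0.37 SE, adjusted p = 3.31e-05). The scavenger receptor Marco was higher as well, with 2099, 1723 and 2182 against 446.0, 382.0 and 403.3 (log2 fold change 2.28 ± 0.10 SE, adjusted p = 1.85e-10). Among other abundant members, Cd5l, Mmp12, Tfrc, Scd2 and Atp6v0a1 were lower in M-EPCs at -1.53, -1.20, -1.73, -1.58 and -1.07 on the log2 scale, and Samhd1, Parp14 and Themis2 were higher at 1.51, 1.45 and 1.02. Without OVX-EPC replicate 2 Themis2 fell just under the threshold. With size factors recomputed by RLE or DESeq2, Cd5l, Mmp12, Scd2 and Atp6v0a1 were still lower, at -0.90, -0.58, -0.96 and -0.44, under the threshold. Adgre1, Cd68, Csf1r and Lyz2 are in none of the tables of the series, so their levels are not known here.

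**Figure D3:**
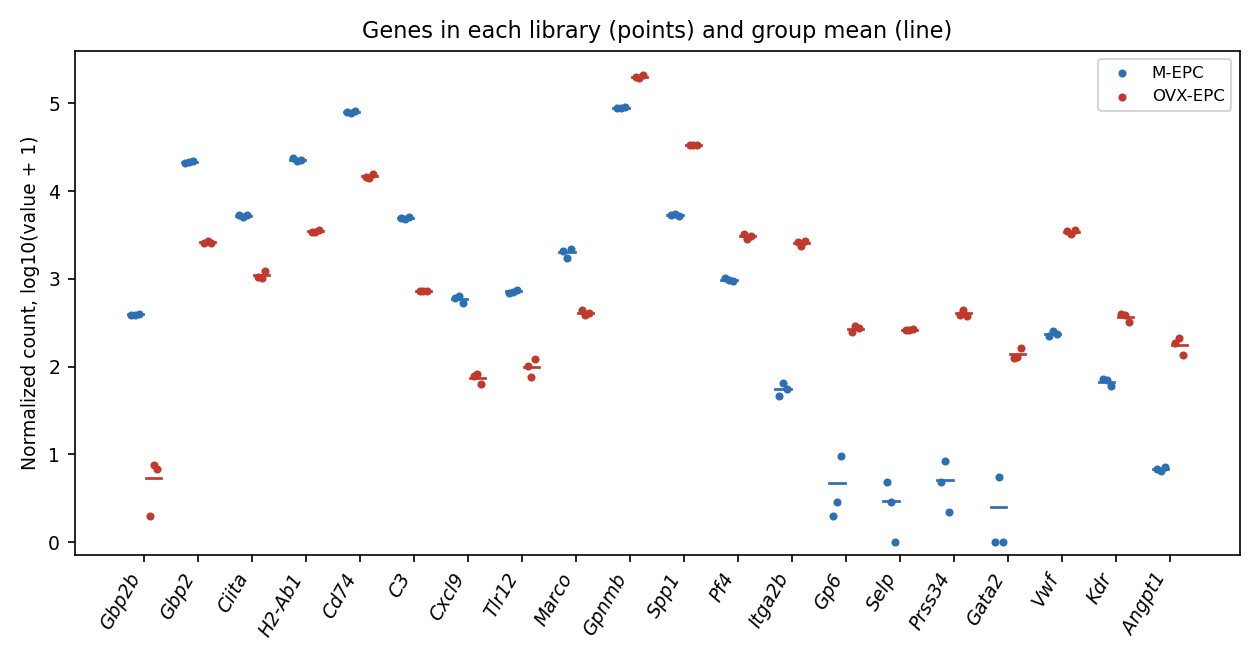
Normalized counts (log10 of the value plus 1) of 20 members in each M-EPC library (blue) and OVX-EPC library (red), with a line at the log10 of the group mean plus 1. The groups separate for every gene shown, and Gp6, Selp, Prss34 and Gata2 have the lowest M-EPC means of the genes shown.

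Of 35 megakaryocyte and platelet markers 29 were members, and all 29 were called lower in M-EPCs, with a median log2 fold change of -3.86 against -1.28 for all members. Their summed level was between 2471 and 2726 normalized counts in M-EPCs, against between 26237 and 27288 in OVX-EPCs, and none of the 29 was at 0 in every M-EPC library.

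Itga2b, the alpha chain of the fibrinogen receptor at chr11:102453297-102470122, had 45.8, 63.4 and 54.9 in M-EPCs against 2646, 2372 and 2729 in OVX-EPCs (log2 fold change -5.55 ± 0.13 SE, adjusted p = 3.01e-13). Its partner Itgb3 kept more signal in M-EPCs, at 367.2, 360.0 and 317.5 against 4014, 3681 and 4071 (log2 fold change -3.49 ± 0.08 SE, adjusted p = 2.29e-13). Selp, which encodes P-selectin, had 3.90, 1.84 and 0 against 260.1, 258.5 and 267.2 (log2 fold change -6.77 ± 0.52 SE, adjusted p = 6.40e-08). The M-EPC libraries held between 0 and 4 reads of Selp, so the size of its fold depends on the pseudocount. The value of Selp was -6.14 without M-EPC replicate 3. Gp6, the collagen receptor, had 0.974, 1.84 and 8.55 against 247.6, 290.5 and 275.0 (log2 fold change -6.17 ± 0.50 SE, adjusted p = 1.18e-07). Most M-EPC reads of Gp6 were in replicate 3, and without it the value was -6.84. Gp5, a subunit of the von Willebrand factor receptor, had 12.7, 15.6 and 4.88 against 601.1, 635.8 and 735.1 (log2 fold change -5.90 ± 0.33 SE, adjusted p = 2.38e-09). All of these groups were separate, and transcription factors were lower as well. Gfi1b had 0, 1 and 0 reads in M-EPCs against 92.5, 99.99 and 91.7 normalized counts in OVX-EPCs, a level at least 25.9-fold lower in M-EPCs. Nfe2 had 17.5, 22.96 and 28.1 against 288.0, 299.0 and 257.6 (log2 fold change -3.59 ± 0.23 SE, adjusted p = 1.08e-08).

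The promoter windows of Gp6, at chr7:4397695-4397994 on the minus strand, and Gp5, at chr16:30310732-30311031 on the minus strand of RefSeq GRCm38.p6, are shown because each holds AGATAA, a core of the GATA site. Capitals mark the match on either strand, beginning at -144 in Gp6 and at -93 and -77 in Gp5.
Gp6: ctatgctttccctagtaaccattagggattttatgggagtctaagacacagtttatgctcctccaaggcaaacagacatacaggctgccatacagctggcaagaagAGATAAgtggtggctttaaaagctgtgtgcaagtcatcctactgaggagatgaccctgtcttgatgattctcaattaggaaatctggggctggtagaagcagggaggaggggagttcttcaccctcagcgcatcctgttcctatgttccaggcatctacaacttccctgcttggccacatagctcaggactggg
Gp5: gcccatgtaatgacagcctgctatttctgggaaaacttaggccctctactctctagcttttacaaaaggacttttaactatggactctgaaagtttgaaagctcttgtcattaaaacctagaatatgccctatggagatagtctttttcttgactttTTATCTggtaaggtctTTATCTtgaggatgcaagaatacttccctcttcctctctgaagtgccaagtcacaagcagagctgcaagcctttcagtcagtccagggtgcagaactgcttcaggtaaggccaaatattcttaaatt

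Of 31 mast cell and basophil markers 13 were listed, all 13 called lower, with a median log2 fold change of -4.54 as fitted. With genes at the floor at their bound the median was -3.54, and that of the platelet list -3.86. Their summed level lay between 103 and 146 normalized counts in M-EPCs, against between 1595 and 2108 in OVX-EPCs. Prss34, a basophil protease, had 3.90, 7.35 and 1.22 in M-EPCs against 388.2, 441.5 and 378.2 in OVX-EPCs (log2 fold change -6.49 ± 0.42 SE, adjusted p = 1.21e-08). Mcpt8 was at 0 in all M-EPC libraries, against 81.9, 58.5 and 84.9 in OVX-EPCs, a level at least 20.5-fold lower. Gata2, at chr6:88193891-88207032, had 0, 4.59 and 0 against 124.3, 127.3 and 162.1 (log2 fold change -6.28 ± 0.62 SE, adjusted p = 8.66e-07). All M-EPC reads of Gata2 were in replicate 2, and without it the value was -7.11. Neutrophil granule markers had 10 of 27 listed, all lower, with a median of -3.33 and -2.07 with floor genes at their bound. Cxcr2 and Ms4a3 were at 0 in every M-EPC library, and the sum over the list was 163 to 227 normalized counts in M-EPCs against 753.3 to 800.7 in OVX-EPCs. Mpo, myeloperoxidase, had 1.95, 6.43 and 0 against 148.3, 73.6 and 122.5 (log2 fold change -5.31 ± 0.64 SE, adjusted p = 5.28e-06). The value of Mpo was -6.02 without M-EPC replicate 2 and -4.57 without replicate 3. Elane, neutrophil elastase, had 0.974, 0 and 0 against 11.6, 39.6 and 32.8, at least 7.64-fold lower.

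Of 21 B cell markers 12 were members, all 12 lower in M-EPCs, with a summed level between 272 and 300.4 normalized counts in M-EPCs, against between 1598 and 1745 in OVX-EPCs. Igkc, the kappa constant segment, had 58.4, 45.00 and 31.7 against 573.2, 660.3 and 632.9 (log2 fold change -3.80 ± 0.20 SE, adjusted p = 1.45e-09). Of the 18 listed T and NK cell markers, out of 32, 17 were lower, with Cd3e at least 4.44-fold lower and Cd8b1 and Klrb1c at 0 in every M-EPC library. Their summed level was 3829 to 4043 normalized counts in M-EPCs against 12321 to 12939 in OVX-EPCs. Klrk1, an activating receptor also known as NKG2D, was the exception, with 146.1, 182.8 and 234.4 in M-EPCs against 61.7, 64.1 and 46.3 in OVX-EPCs (log2 fold change 1.68 ± 0.22 SE, adjusted p = 1.44e-05). Dendritic cell markers divided, with 10 of 13 listed lower, Siglech at 0, 0.918 and 2.44 against 76.1, 85.8 and 83.9 among them, and the costimulatory gene Cd86, the antigen-presenting gene Cd1d1 and the lectin gene Mgl2 higher at 1.13, 1.23 and 1.08. The dendritic cell sum was 3764 to 4017 normalized counts in M-EPCs against 4572 to 4853 in OVX-EPCs, with Cd209a at 0 in every M-EPC library. Progenitor and lineage regulators had 15 of 44 listed, all lower, with a median of -2.58 and a sum of 1449 to 1540 normalized counts in M-EPCs against 4244 to 4747 in OVX-EPCs. These markers of other blood cells moved with the platelet and endothelial genes in the same libraries, and their part in those results was not tested.

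Endothelial markers, the identity that the label EPC names, had 6 of 41 genes listed, all lower in M-EPCs, with a median of -2.21 and a summed level between 457.9 and 504.5 normalized counts in M-EPCs, against between 4151 and 4548 in OVX-EPCs. Vwf, at chr6:125546774-125686679, makes up most of the OVX-EPC sum and is shared with the platelet list, as is Tal1. It had 220.1, 257.2 and 234.4 in M-EPCs against 3545, 3228 and 3583 in OVX-EPCs (log2 fold change -3.86 ± 0.08 SE, adjusted p = 1.83e-13). Kdr, the receptor VEGFR2, had 71.1, 69.8 and 58.6 against 392.1, 389.6 and 324.2 (log2 fold change -2.45 ± 0.16 SE, adjusted p = 1.42e-08). Esam had 8.77, 6.43 and 8.55 against 76.1, 68.9 and 98.4 (log2 fold change -3.20 ± 0.36 SE, adjusted p = 3.13e-06), and Tie1 had 22.4, 18.4 and 17.1 against 93.4, 76.4 and 66.6 (log2 fold change -1.97 ± 0.31 SE, adjusted p = 5.57e-05). Per kilobase, Kdr stood at 7.36 normalized counts in M-EPCs against 40.8 in OVX-EPCs, and Gpnmb at 13728 and 30867. Cdh5, Tek, Cd34 and Nos3 are in none of the tables of the series, and Pecam1 and Ly6a, which encode the sorting antigens CD31 and Sca-1, are listed for the other pairs of groups and not for this one. Their levels in this comparison are not known here.

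Of 59 angiogenic factors and inhibitors 9 were listed, 7 lower and 2 higher. Angpt1, the ligand of the TEK receptor, had 5.84, 5.51 and 6.11 in M-EPCs against 185.0, 212.2 and 136.0 in OVX-EPCs (log2 fold change -4.69 ± 0.33 SE, adjusted p = 2.58e-08). Timp3, which inhibits metalloproteinases and VEGFR2 signalling, had 181.1, 169.9 and 155.1 against 953.7, 883.9 and 1003 (log2 fold change -2.48 ± 0.11 SE, adjusted p = 1.78e-10). The 2 platelet-derived growth factors went apart, Pdgfa with 135.4, 169.9 and 146.5 against 333.3, 314.1 and 357.9 (log2 fold change -1.15 ± 0.14 SE, adjusted p = 5.28e-06), and Pdgfb with 1482, 1364 and 1264 against 470.1, 423.5 and 579.8 (log2 fold change 1.49 ± 0.11 SE, adjusted p = 5.15e-08). With size factors recomputed by RLE or DESeq2 Pdgfa was at -0.52, under the threshold, as were Plaur and Ccn1. Stromal and contractile genes had 13 of 59 listed, all lower, with a sum of 4153 to 4258 normalized counts in M-EPCs against 10037 to 10317 in OVX-EPCs, and Myl9 and Des were at 0 in every M-EPC library, at least 7.84-fold and at least 6.61-fold lower.

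Metabolic lists were listed in small part. Of 30 genes of cholesterol and lipid handling 8 were members. Scd1, a fatty acid desaturase, had 189.9, 153.4 and 180.7 in M-EPCs against 2448, 2528 and 2383 in OVX-EPCs (log2 fold change -3.81 ± 0.10 SE, adjusted p = 6.97e-13), and Fabp4 had a log2 fold change of -2.17. Ch25h, the cholesterol 25-hydroxylase that interferon induces, was the 1 member of the list that was higher, at 12.7, 19.3 and 12.2 against 0.963, 0 and 0.965, at least 5.09-fold higher. Fabp5, at -0.99, stood just under the threshold and was not called. Of 31 genes of glycolysis and hypoxia 4 were listed, all lower, and Slc2a3, a glucose transporter, had 41.9, 33.98 and 84.2 against 683.0, 564.1 and 664.7 (log2 fold change -3.66 ± 0.26 SE, adjusted p = 3.24e-08). Of 49 cell cycle genes Cdkn1c, a cyclin-dependent kinase inhibitor, was the 1 member, with 43.8, 25.7 and 26.9 against 335.2, 459.4 and 374.3 (log2 fold change -3.59 ± 0.23 SE, adjusted p = 1.08e-08). None of 23 H3K9 methyltransferases and demethylases was listed. The lists of heat shock and immediate early genes (4 of 26 listed) and of erythroid genes (5 of 21) held lower members only, the Notch and ephrin list held Epha7 alone at 1 of 24, lower, that of integrins and leukocyte adhesion 1 of 10 higher, Itgal at 1.21, and that of Fc receptors and lectins 3 higher and 3 lower.

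The direction differed with the annotated kind of gene. Of the 905 protein-coding members 26.2% were higher in M-EPCs. The share was 75.3% of 146 long non-coding genes, 82.8% of 64 pseudogenes, 92.9% of 14 small RNA genes and 93.8% of 112 genes of the class TEC, which GENCODE marks as to be experimentally tested. All 22 immunoglobulin and T cell receptor segments were lower. The kinds were compared after these values had been seen. In the sum of all listed autosomal counts, the 336 long non-coding, pseudogene, small RNA and TEC members took 4.75%, 4.93% and 4.82% in the M-EPC libraries against 2.38%, 2.60% and 2.29% in the OVX-EPC libraries. The share describes genes that the authors had selected on these libraries, 281 of the 336 being higher in M-EPCs, and adds nothing to those counts. Their median log2 fold changes were 1.22 for both long non-coding and TEC genes, 1.59 for pseudogenes and 2.12 for small RNAs.

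**Figure D4:**
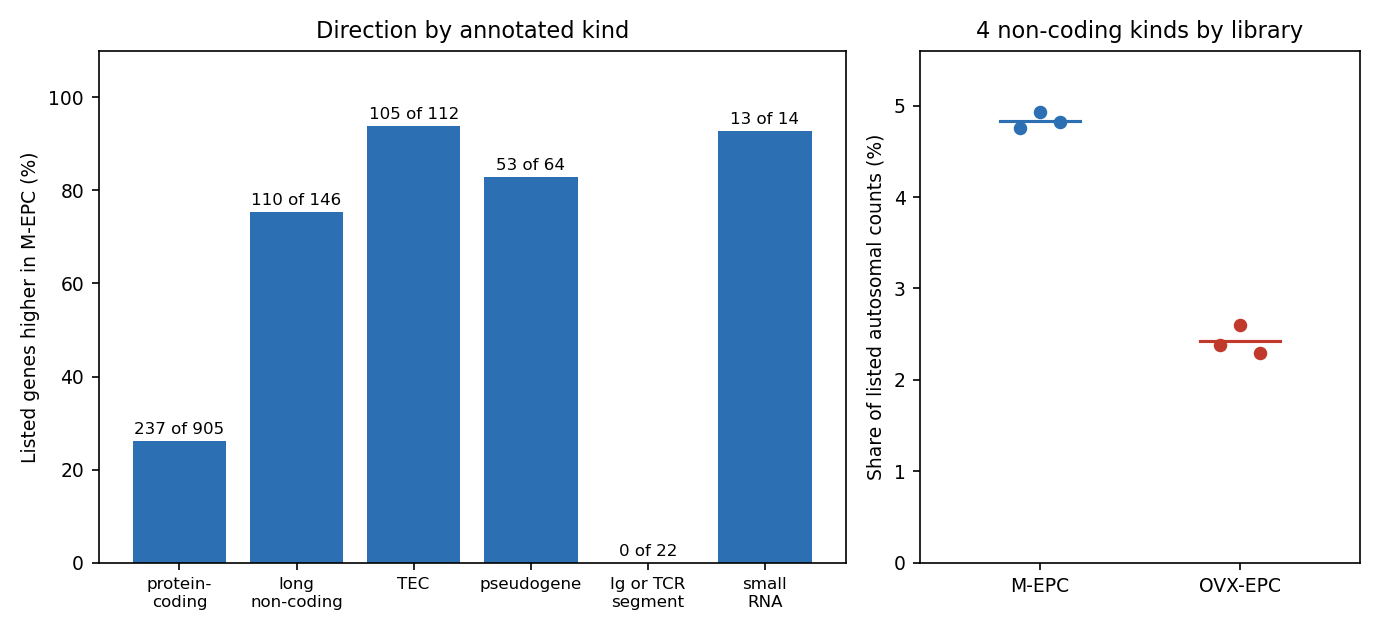
Left, bars give the percentage of members of each annotated kind that were higher in M-EPC, with counts above them. Right, points give the share of all listed autosomal counts taken by the TEC, long non-coding, pseudogene and small RNA members in each library, with a line at the group mean. The M-EPC libraries lie between 4.75% and 4.93% and the OVX-EPC libraries between 2.29% and 2.60%.

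The share differed with where such a gene lay. Of these 336 genes, 124 lay inside a protein-coding gene on the same strand, 119 of them wholly within an intron, and 117 of the 124 were higher in M-EPCs (94.4%). Of the 85 inside a protein-coding gene on the opposite strand 77 were higher (90.6%), and of the 127 outside any protein-coding gene 87 were higher (68.5%). The 124 same-strand genes lay in 102 hosts, and for 9 of the 124 the host was itself a member. The 6 TEC genes within introns of Cers6, a ceramide synthase gene on chromosome 2, were all higher, though Cers6 is not a member. Among them Gm37159, at chr2:68891366-68894970, had 238.6, 337.1 and 333.3 normalized counts in M-EPCs against 77.1, 95.3 and 96.5 in OVX-EPCs (log2 fold change 1.74 ± 0.18 SE, adjusted p = 1.26e-06). Gm38377, at chr2:69018096-69021867, had 375.0, 375.6 and 289.4 against 113.7, 176.4 and 146.6 (log2 fold change 1.26 ± 0.18 SE, adjusted p = 2.12e-05). No library of one group reached the other for either gene. Reads of unspliced host transcripts and reads of such genes cannot be told apart in these counts. The study's methods name a directional library kit, but whether the counting used strand is not given in the sources used here.

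Outside hosts, AW112010, a lincRNA gene at chr19:11047612-11055808, had 2081, 1986 and 2275 normalized counts in M-EPCs against 441.2, 529.2 and 579.8 in OVX-EPCs (log2 fold change 2.04 ± 0.10 SE, adjusted p = 5.53e-10). It and the TEC genes above were chosen after their values were seen. In the table of M-EPCs and F-EPCs, 87.8% of 148 listed TEC genes were higher in M-EPCs, as were 74.9% of 251 long non-coding genes, 68.3% of 101 pseudogenes, 15 of 19 small RNAs and 41.0% of 1421 protein-coding genes. In that of F-EPCs and OVX-EPCs, 64.7% of 34 TEC genes were higher in F-EPCs, as were 44.6% of 56 long non-coding genes, 17 of 21 pseudogenes, 1 of 2 small RNAs and 27.3% of 655 protein-coding genes. The comparisons share libraries, so these are not independent of each other.

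Promoter windows from RefSeq GRCm38.p6 were found for 730 of the 1263 members (57.8%), under the 80% that a check over all members needs, so the shares below describe those windows and not the members as a whole. The motifs were chosen after the values were seen and were searched on both strands. The interferon-stimulated response element core shown above in Gbp2b and Gbp2, GAAA followed by any 2 bases and GAAA again, was in 22.5% of the 209 windows of members higher in M-EPCs, in 2.50% of the 521 windows of members lower in M-EPCs and in 3.50% of all 25748 windows of chromosomes 1 to 19. TTCNNNGAA, a STAT core, was in 17.2%, 6.14% and 8.54% of the same sets. AGATAA, the GATA core shown in Gp6 and Gp5, was in 12.9%, 10.9% and 11.4%.

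By list, the interferon-stimulated response element core was in 11 of the 12 windows of interferon-inducible GTPases and in 10 of 17 of type I interferon antiviral genes. It was in 0 of 5 windows of MHC class II genes, which says only that these letters are not in those windows. AGATAA was in 8 of 25 windows of platelet members (32.0%) and in 6 of 12 of mast cell and basophil members, and also in 4 of 12 of interferon-inducible GTPases (33.3%), which were higher in M-EPCs. A match is a description of letters, not of a bound site. The interferon-stimulated response element and STAT cores can overlap in sequence.

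**Figure D5:**
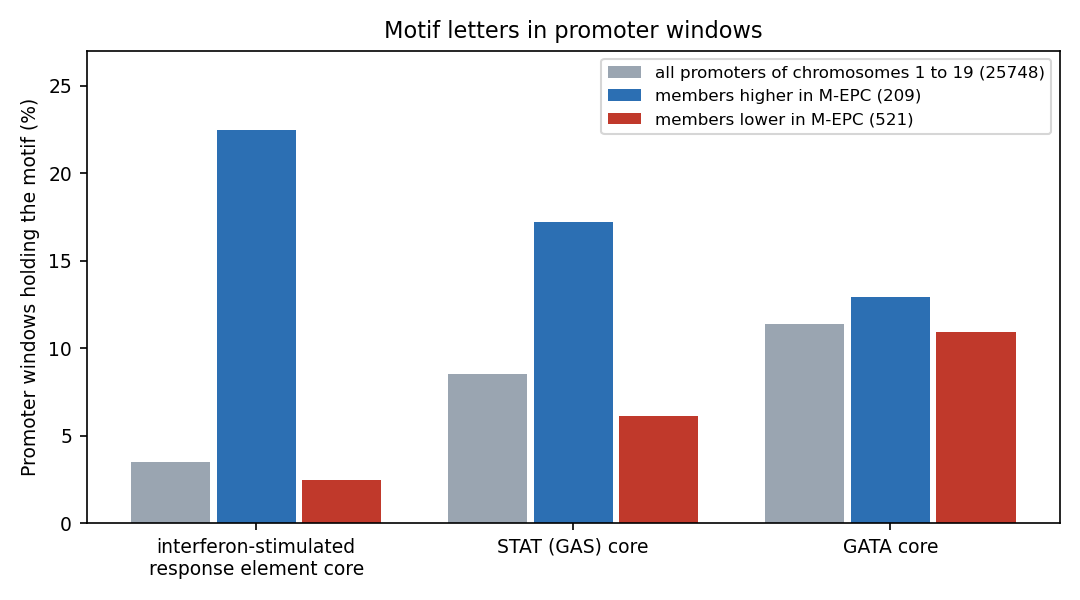
Bars give the percentage of promoter windows that hold each motif, for all autosomal windows (grey, 25748), members higher in M-EPC (blue, 209) and members lower in M-EPC (red, 521). The blue bar for the interferon-stimulated response element core stands at 22.5%, the grey at 3.50% and the red at 2.50%.

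Of the 1263 members, 771 (61.0%) were also listed between M-EPCs and F-EPCs, 285 (22.6%) between F-EPCs and OVX-EPCs, 120 (9.50%) in all 3 tables and 327 (25.9%) in this table alone. The tables were normalized separately and share libraries, so each gives its own values. In the table of M-EPCs and F-EPCs, the level of Gbp2 was 20987 ± 550.1 (SD, n = 3) for M-EPCs against 679.7 ± 36.9 for F-EPCs, beside 21457 ± 540.2 in M-EPCs against 2617 ± 85.1 in OVX-EPCs here. Cd74 had 78118 in M-EPCs and 2697 ± 155.6 in F-EPCs there, beside 79866 ± 1674 and 14751 ± 942.3 here, and Tlr12 had 703.3 and 5.90 ± 2.79 there, beside 719.0 ± 31.9 and 98.4 ± 23.1 here. In the table of F-EPCs and OVX-EPCs, which puts both on 1 scale, Gbp2 had 704.9 ± 37.8 in F-EPCs and 2661 ± 81.5 in OVX-EPCs, Cd74 2797 ± 160.1 and 15000 ± 980.3, and Tlr12 6.12 ± 2.90 and 100.1 ± 23.6. Other interferon genes went the other way on that scale. Ifit1 had 1299 ± 120.6 in F-EPCs and 411.6 ± 40.1 in OVX-EPCs, and Ifit3b 399.6 ± 20.3 and 129.0 ± 14.3. For platelet and endothelial genes the F-EPC values in the table with M-EPCs were 1518 ± 126.8 for Itga2b, 163.4 ± 1.02 for Selp, 2351 ± 53.1 for Vwf and 343.3 ± 23.9 for Kdr, beside 2583 ± 186.7, 261.9 ± 4.66, 3452 ± 194.9 and 368.6 ± 38.5 in OVX-EPCs here. Itga2b, Selp, Vwf and Kdr are not listed between F-EPCs and OVX-EPCs. Spp1 is, with 104969 ± 3193 in F-EPCs and 33995 ± 165.6 in OVX-EPCs.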

How the data were processed

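RNA libraries of the 3 M-EPC and 3 OVX-EPC samples were compared. Per the labels and methods, the authors aligned reads with HISAT2 to mm10 and used Cuffnorm, Cufflinks and DESeq, with no versions given. The deposited values are normalized counts, a signal made by dividing read counts by size factors, for genes that passed the authors' screen on fold change and false discovery rate. The deposited tables also give the log2 fold change and p-value of the authors' own DESeq comparison, which were not used. Whole reads were recovered for 100% of values (tolerance 0.01).

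Log2 values (pseudocount 1, mean of at least 1) were tested with limma 3.58.1 (R 4.3.3, trend, Benjamini-Hochberg over all 1317 listed genes). Calls took an adjusted p-value below 0.05 with a change of 1 or more on the log2 scale. A single-gene exact permutation test of 3 against 3 cannot go below 0.1. edgeR 4.0.16, DESeq2 1.42.0, other filters, scalings and libraries left out were alternatives, and the code was tested on simulated data. Positions are those of GENCODE and RefSeq for GRCm38.

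Members, gene lists and tests were chosen with earlier results of these data known. Named genes were up to 5 called members a list and direction by size of change, the 15 largest changes a direction, the 10 highest levels a group, 5 genes at the floor a direction, the 5 smallest changes and genes the study names or measures, plus list members named by value and the non-coding genes and motifs that the text says were chosen after their values were seen. Some genes that this rule names are not reported here.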

Additional observations from a re-analysis of the deposited data

How the results depend on the processing

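Size factors computed from the listed genes moved the median of all genes up by 0.20 with edgeR's TMM, 0.62 with RLE and 0.63 with DESeq2. Those genes were selected as differing, so such factors cannot decide which scaling is right. The counts were 1250 called, 509 higher and 741 lower in M-EPCs. DESeq2 with its own size factors called 1001, 518 higher and 483 lower, and edgeR with RLE 1037, 518 higher and 519 lower. Requiring a change of 2 or more on the log2 scale left 550, 108 higher and 442 lower, which follows from the stricter threshold. Other settings called between 1176 and 1263. Leaving out 1 library gave 1189 to 1214 called, 465 to 487 higher and 715 to 727 lower. Of 175 named genes 0 reversed, 20 lost their call and 6 gained one under some setting. With TMM 4 lost it, against 16 with RLE and 19 with DESeq2's own size factors.

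Deviations of same-numbered libraries correlated at -0.067, 0.036 and -0.0013. These values gave no sign of pairing by replicate number, but they cannot show how the libraries were prepared. With the replicate block 1250 genes were called, 509 higher and 741 lower.

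Since the tables hold only genes that the authors selected, genes that did not differ were not analysed here. Depth limits the 164 genes at the floor in M-EPCs and the 25 in OVX-EPCs, whose folds are bounds.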

Other observations

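Stretches of at least 5 listed genes with gaps of at most 250000 bases numbered 26. In 7 every listed gene was higher in M-EPCs, in 2 every one was lower, and 17 were split, such as the stretch with C4b and Cfb on chromosome 17, with 5 higher and 4 lower. All 6 listed genes of the Ifit stretch on chromosome 19 (Ch25h, Ifit2, Ifit3, Ifit1bl1, Ifit3b and Ifit1) were higher in M-EPCs, as were all 7 around Ugt1a1 and Scarna6 on chromosome 1. All 6 of the stretch with Iglc2 and Iglc3 on chromosome 16 were lower, and so were 8 of the 9 around Cd5l and Pear1 on chromosome 3. Neighbouring genes can share reads, and the near-identical copies among them are uncertain for that reason.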
